A study of Mus musculus with 10 samples.

Results

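The 10 genes described here encode carriers and receptors that bring water-soluble vitamins into cells, namely Slc23a1 and Slc23a2 for ascorbate, Slc46a1 and Slc19a1 for folate, Slc19a2 and Slc19a3 for thiamine, Slc52a3 for riboflavin, Slc5a6 for biotin and pantothenate, and Cubn and Amn for cobalamin. They were selected on the measured rise of Slc23a2 in Arid3a-deleted crypts, and the other 9 were added by function, so the genotype difference of Slc23a2 is given as a description without a test. The files listed 54838 genes, and all 10 of the set were among the 14719 genes that passed the filter on low counts. Each was matched to its Ensembl gene by symbol.

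The small intestine takes up water-soluble vitamins mainly through the enterocytes that line the villi, which carry sodium-coupled or proton-coupled carriers in their brush border and export or convert the vitamin inside the cell. Cobalamin is the exception, since it is bound to intrinsic factor and taken up by a receptor made of cubilin and amnionless, for which the distal small intestine is best known. Crypts hold stem cells and their dividing progeny, and enterocyte genes are turned on as cells leave the crypt for the villus.

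The series holds RNA-seq of crypts isolated from the jejunum, with 1 library from each of 5 WT mice and 5 Arid3a cKO mice, to ask which genes differ once Arid3a is lost. The cKO mice were VillinCre-ERT2; Arid3a fl/fl, in which tamoxifen removes Arid3a from Villin-expressing epithelial cells and not from stroma or blood cells, and mice of both genotypes received tamoxifen on 3 consecutive days and were killed 1 month after the first injection. The labels call the control mice WT and state no floxed allele or Cre for them, and neither age nor sex is given. The animal codes in the sample descriptions begin with one set of letters in every WT library and with another in every cKO library, and a difference between these animal series and the genotype cannot be told apart.

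Libraries held 27050455 to 31053622 expected counts. Levels are given as CPM, the counts of a gene relative to its TMM-normalised library size. Arid3a ranged from 1.92 to 2.75 CPM over the WT libraries and from 0.303 to 1.17 CPM over the cKO libraries, with no overlap (log2 fold change -1.84, SE 0.32, adjusted p = 0.00204). All adjusted p-values are Benjamini-Hochberg values over the 14719 genes from the quasi-likelihood test of edgeR, unless another tool is named. Over all tested genes, 28.3% were called at an adjusted p under 0.05, 15.6% higher and 12.7% lower in cKO. Under library size scaling alone the same test called 1544 genes higher and 4030 lower, against 2298 and 1869 with TMM, and the median log2 fold change of all genes moved from -0.03 to -0.16. On the log2(TPM + 0.1) and log2(TPM + 1) scales, limma called 1399 and 1411 genes higher and 2742 and 2760 lower. Of 15 villus enterocyte markers, 13 were called higher in cKO (median log2 fold change 1.80), and their summed level ran from 2192 to 9088 CPM in WT and from 10809 to 19944 CPM in cKO. In WT this sum differed 4.15-fold between the highest and the lowest library, with WT replicates 3 and 4 lowest, at 3441 and 2192 CPM. In bulk crypts, a change in the number of enterocytes and a change in RNA per cell cannot be told apart. Of 5 stem cell markers 3 were called lower and none higher, and of 6 Paneth cell markers 5 were called lower, their sum running from 14743 to 22158 CPM in WT and from 9543 to 12808 CPM in cKO. Called higher were 2 of 6 enteroendocrine markers, whose sum ran from 401 to 486 CPM in WT and from 523 to 752 CPM in cKO, and 2 of 4 tuft cell markers, whose sum ran from 76.1 to 85.6 CPM in WT and from 86.2 to 98.9 CPM in cKO. Of 5 goblet cell markers none was called. Of the markers of other tissues, 1 of 9 stromal (Acta2), 1 of 10 immune (Jchain) and 1 of 3 endothelial markers (Pecam1) were called lower and none higher, with summed levels that overlapped at 20.6 to 102 and 18.6 to 157 CPM for stroma, 79.1 to 149 and 43.4 to 104 CPM for immune cells and 5.68 to 8.25 and 5.21 to 7.27 CPM for endothelium, WT first. The part of these cells in the transporters' differences was not tested.

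Among the 10 transporter genes, the cKO libraries had more RNA for 1 ascorbate, 1 folate and 1 thiamine carrier (2.07-, 3.89- and 4.37-fold in mean CPM), without any overlap between genotypes, while the second folate carrier and the carriers for riboflavin and for biotin and pantothenate stayed within the spread of the libraries. Among the 9 genes other than Slc23a2, the log2 fold change was positive for 7, with a median of 0.53, beside 45.9% positive and a median of -0.03 over all tested genes. Of these 9 genes, 4 were called higher (Slc46a1, Slc19a3, Cubn and Amn) and none lower, beside the 15.6% and 12.7% of all genes, and nothing is read from these counts, because the set was drawn up with results of these libraries known. Every cKO library lay above every WT library for 2 of the 9 (Slc46a1 and Slc19a3), beside 12.0% of all tested genes, and, as a description, for Slc23a2.

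**Figure D1:**
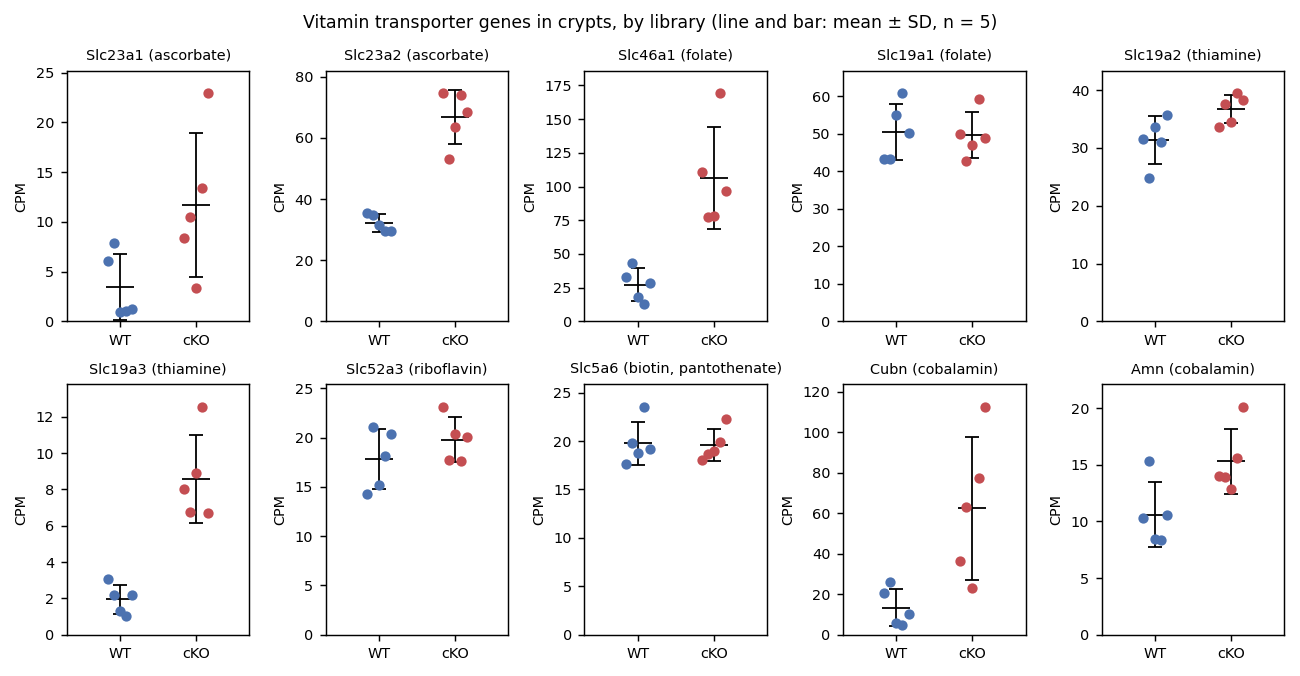
CPM of each transporter gene in the 5 WT (blue) and 5 cKO (red) crypt libraries, with 1 point per library and the mean ± SD as a line and bar. The WT and cKO points are apart for Slc23a2, Slc46a1 and Slc19a3 and overlap for the other 7 genes.

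Slc23a2 encodes SVCT2, the sodium-dependent ascorbate transporter that most tissues use to bring vitamin C from blood into cells. The gene spans positions 132052496 to 132145108 of chromosome 2 on the minus strand (GRCm38) and has 7 annotated transcripts. It stood at 35.5, 34.9, 31.6, 29.6 and 29.5 CPM in WT replicates 1 to 5 and at 74.5, 53.1, 63.5, 74.0 and 68.5 CPM in cKO replicates 1 to 5. The lowest cKO library was 1.497 times the highest WT library. The mean went from 32.2 ± 2.83 CPM in WT to 66.7 ± 8.85 CPM in cKO (SD, n = 5 each), a ratio of 2.07 and a log2 fold change of 1.05 (SE 0.10). Ranked by the log2 fold change over its SE, it was number 9 of 14719 genes, at 10.6, although it was only number 533 by the log2 fold change itself. The gene was chosen as among the sharpest rises, so neither rank is support for its rise. The SD of log2 CPM was 0.13 in WT and 0.20 in cKO, with 20.8% and 64% of tested genes having a smaller one in that genotype. A small spread may be part of what chose the gene, so nothing is read from it.

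The rise of Slc23a2 was not shared by all genes near it. On one side, Prnp and Rassf2 had log2 fold changes of 0.24 (SE 0.18, adjusted p = 0.355) and -0.76 (SE 0.36, adjusted p = 0.138). On the other side, Tmem230 was higher by 0.51 (SE 0.07, adjusted p = 8.66e-04), and Pcna, the replication clamp, fell by 0.38 on the log2 scale (SE 0.08, adjusted p = 0.00404). The antisense gene Gm14051 and the pseudogene Gm14052, which overlap Slc23a2, held too few counts to be tested.

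Slc23a1, which encodes SVCT1, the ascorbate transporter of absorptive epithelia, behaved differently within each genotype. Its single annotated transcript comes from positions 35614604 to 35627244 of chromosome 18 (GRCm38, minus strand). WT replicates 1 and 2 held 6.06 and 7.89 CPM, whereas WT replicates 3 to 5 held 0.950, 1.07 and 1.27 CPM. The cKO libraries held 8.36, 10.5, 3.32, 13.4 and 22.9 CPM, so that cKO replicate 3 lay below WT replicates 1 and 2 and the genotypes overlapped. The WT mean was 3.45 ± 3.28 CPM and the cKO mean 11.7 ± 7.26 CPM, and the log2 fold change of 1.76 (SE 0.73) did not pass the test (adjusted p = 0.101). It did pass under DESeq2 (adjusted p = 0.0498), under limma-voom (adjusted p = 0.0424) and without WT replicate 2 (log2 fold change 2.32, adjusted p = 0.0454). The spread among WT libraries was larger than that of 99% of tested genes.

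Per transcript length, Slc23a2 exceeded Slc23a1 in every library. The ratio of their TPM (transcripts relative to all transcripts of the library, corrected for length) was 2.74, 2.12, 15.4, 15.1 and 10.7 in WT replicates 1 to 5 and 4.15, 2.37, 8.97, 2.60 and 1.41 in cKO replicates 1 to 5. The medians of 10.7 and 2.60 came from ranges that overlapped.

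Slc46a1 encodes PCFT, the proton-coupled carrier that absorbs dietary folate across the brush border of the upper small intestine. It lies at positions 78465697 to 78472059 of chromosome 11 on the plus strand (GRCm38). WT libraries held 33.0, 43.5, 18.3, 13.3 and 28.6 CPM, and cKO libraries held 111, 77.2, 78.4, 169 and 96.5 CPM. All 5 cKO libraries lay above the highest WT library, by at least 1.77-fold. The WT mean was 27.3 ± 12.0 CPM and the cKO mean 106 ± 37.7 CPM (SD, n = 5 each), and the log2 fold change was 1.96 (SE 0.35, adjusted p = 0.00463). It was called under all 20 alternative settings, with log2 fold changes of 1.60 to 2.20.

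Slc19a1 encodes the reduced folate carrier, through which most cells take up folate, and did not follow Slc46a1. Its values were 43.2, 43.3, 54.9, 60.7 and 50.2 CPM in WT and 50.01, 42.8, 46.9, 59.3 and 48.9 CPM in cKO, and the groups covered nearly the same range. The means were 50.5 ± 7.55 and 49.6 ± 6.06 CPM, with a log2 fold change of -0.03 (SE 0.11, adjusted p = 0.884), whose sign changed under 4 of 20 alternative settings. The log2 fold changes under those 20 settings ran from -0.16 to 0.12. The ratio of Slc19a1 to Slc46a1 in TPM was 1.19, 0.938, 2.54, 3.48 and 1.55 in WT libraries and 0.382, 0.504, 0.530, 0.321 and 0.437 in cKO libraries. Every cKO ratio was therefore lower than every WT ratio, and Slc46a1 was the more abundant of the pair in all cKO libraries and in 1 WT library.

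Slc19a1 occupies positions 77032241 to 77061002 of chromosome 10 (GRCm38, plus strand), 2.87 Mb from Arid3a (79927043 to 79955018) on the same chromosome. Of the 131 genes tested within 2 Mb of Arid3a, which leaves out Slc19a1, 27.5% were called, close to the 28.3% over all genes. Within 5 Mb, which takes in Slc19a1, 27.3% of 198 genes were called. The 3′ end of Slc19a1 overlaps Col18a1 on the other strand, which held 1.78 to 3.91 CPM over the 10 libraries (log2 fold change -0.15, SE 0.23, adjusted p = 0.646). Whether the counting used strand is not given in the sources used here, so reads in the overlap could belong to either gene.

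Of the thiamine carriers, as of the folate carriers, 1 passed the test and the other did not. Slc19a2 encodes THTR1, the more widely expressed thiamine transporter, and held 31.5, 24.7, 33.6, 31.1 and 35.7 CPM in WT and 33.6, 37.6, 34.6, 39.4 and 38.3 CPM in cKO. The ranges overlapped, with means of 31.3 ± 4.12 and 36.7 ± 2.50 CPM and a log2 fold change of 0.23 (SE 0.09, adjusted p = 0.0862). Only without WT replicate 5 did it pass the test (0.30, adjusted p = 0.0338) among the 20 settings.

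Slc19a3 encodes THTR2, the high-affinity thiamine transporter of the intestinal brush border. It was at 3.06, 2.20, 1.32, 1.04 and 2.18 CPM in WT and at 8.02, 6.75, 8.88, 12.6 and 6.70 CPM in cKO. The lowest cKO library was 2.19 times the highest WT library, the widest gap of the 10 genes. The mean went from 1.96 ± 0.803 to 8.58 ± 2.40 CPM (SD, n = 5 each), and the log2 fold change was 2.13 (SE 0.28, adjusted p = 7.99e-04). The gene was called under all 20 alternative settings, with 1.38 as the lowest log2 fold change, on the log2(TPM + 1) scale, and 2.35 as the highest. The TPM of Slc19a2 was 7.42 to 22.6 times that of Slc19a3 in WT libraries and 2.47 to 4.66 times in cKO libraries, with no overlap. Slc19a2 is at positions 164249046 to 164265385 on the plus strand of chromosome 1, and Slc19a3 is at 83012523 to 83038448 on the minus strand of the same chromosome (GRCm38).

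The sequences just upstream of the start sites of Slc23a2, Slc46a1, Slc19a3, Slc19a2 and Cubn are shown because these genes rose strongly, except Slc19a2, which is shown beside Slc19a3 as the thiamine carrier that did not pass the test. Each is the 250 bases before a RefSeq start site (GRCm38.p6), 5′ to 3′ on the strand of the gene. RefSeq windows were examined for 8 of the 10 genes, and none was examined for Slc23a1 or Slc52a3. Capitals mark matches, on either strand, to 8 short motifs that were searched. For the nuclear receptor HNF4 these were CAAAGTCCA and, within it, the shorter core AAAGTCC. The half-site searched for the homeodomain factor HNF1 was GTTAAT, and that for other nuclear receptors was AGGTCA. The homeodomain factor CDX was searched for as TTTATNG, and the zinc finger factors of the GATA family by the motif spelled AGATAA. The promoter elements searched were the GC box, read as GGGCGG, and the TATA box, in the spelling of TATAAA.
Slc23a2, chr2:132145109-132145358, minus strand: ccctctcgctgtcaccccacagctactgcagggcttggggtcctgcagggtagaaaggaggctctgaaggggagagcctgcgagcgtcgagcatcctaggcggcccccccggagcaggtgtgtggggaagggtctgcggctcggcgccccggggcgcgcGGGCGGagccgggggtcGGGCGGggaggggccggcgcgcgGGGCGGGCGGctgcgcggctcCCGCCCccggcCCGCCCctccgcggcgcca
Slc46a1, chr11:78465451-78465700, plus strand: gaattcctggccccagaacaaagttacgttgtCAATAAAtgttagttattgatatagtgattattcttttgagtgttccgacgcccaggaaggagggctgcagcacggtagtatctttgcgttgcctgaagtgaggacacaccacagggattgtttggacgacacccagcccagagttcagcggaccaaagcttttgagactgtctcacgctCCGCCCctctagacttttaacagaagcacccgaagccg
Slc19a3, chr1:83038449-83038698, minus strand: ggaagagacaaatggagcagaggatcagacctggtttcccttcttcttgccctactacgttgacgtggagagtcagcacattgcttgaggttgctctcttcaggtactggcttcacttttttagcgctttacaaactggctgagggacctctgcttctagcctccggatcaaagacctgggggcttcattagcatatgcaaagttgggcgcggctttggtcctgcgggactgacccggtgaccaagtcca
Slc19a2, chr1:164248796-164249045, plus strand: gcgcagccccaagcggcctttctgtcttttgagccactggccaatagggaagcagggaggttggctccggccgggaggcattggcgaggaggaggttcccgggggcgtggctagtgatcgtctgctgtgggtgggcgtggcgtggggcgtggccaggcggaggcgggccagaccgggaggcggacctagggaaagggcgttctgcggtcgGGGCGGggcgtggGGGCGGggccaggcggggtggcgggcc
Cubn, chr2:13491877-13492126, minus strand: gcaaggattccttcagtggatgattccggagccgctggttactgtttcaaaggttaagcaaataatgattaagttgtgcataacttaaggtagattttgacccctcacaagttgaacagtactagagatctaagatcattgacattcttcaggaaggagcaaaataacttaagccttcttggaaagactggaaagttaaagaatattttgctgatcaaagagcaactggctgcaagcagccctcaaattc

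The window of Slc23a2 held 6 GC boxes, all within 91 bases of the start site, 31 CpG dinucleotides and a GC content of 78.8%, higher than in 98.3% of the 32851 RefSeq windows. That of Slc19a2 held 2 GC boxes, 23 CpG dinucleotides and 73.2% GC. The windows of Slc19a3 and Cubn held none of the 8 motifs, with 8 and 2 CpG dinucleotides and 52.8% and 39.6% GC. That of Slc46a1 held 1 CDX motif, read as CAATAAA on the strand shown and starting 218 bases before the start site, and 1 GC box, with 11 CpG dinucleotides. Over all windows, the GC box was found in 32.7%, the CDX motif in 9.81%, the TATA box in 12.4%, the nuclear receptor half-site in 14.0%, the GATA motif in 9.99%, the HNF1 half-site in 6.43%, the HNF4 core in 3.58% and the longer HNF4 motif in 0.384%. The genes that rose thus spanned windows from CpG-rich, in Slc23a2, to CpG-poor, in Cubn. A second RefSeq start of Slc23a2, further upstream, had a window with 56.0% GC and none of the motifs. Of the windows not shown, both of Slc5a6 held 20 CpG dinucleotides and both of Slc19a1 held 16, and neither gene passed the test. The window of Amn, which was called higher, held 11.

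The carriers for riboflavin and for biotin and pantothenate changed by less than the spread between libraries. Slc52a3 encodes RFVT3, the brush border riboflavin transporter, and lies at positions 151996511 to 152009258 of chromosome 2 (GRCm38, plus strand). It held 14.2, 21.1, 15.2, 18.1 and 20.4 CPM in WT and 23.1, 17.7, 20.4, 17.7 and 20.1 CPM in cKO, with a log2 fold change of 0.15 (SE 0.12, adjusted p = 0.371). Slc5a6 encodes SMVT, the sodium-dependent multivitamin transporter for biotin, pantothenate and lipoate, at positions 31036036 to 31048924 of chromosome 5 (GRCm38, minus strand). It held 17.7, 19.8, 18.7, 23.5 and 19.1 CPM in WT and 18.0, 18.7, 18.9, 19.9 and 22.3 CPM in cKO. Its log2 fold change of -0.02 (SE 0.09, adjusted p = 0.917) changed sign under 3 of 20 alternative settings, over a range of -0.15 to 0.06.

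Cubn encodes cubilin, the large extracellular receptor that binds intrinsic factor with cobalamin, and lies at positions 13276338 to 13491813 of chromosome 2 (GRCm38, minus strand). WT replicates 1 and 2 held 20.5 and 25.8 CPM, and WT replicates 3 to 5 held 5.63, 5.02 and 10.3 CPM. The cKO libraries held 36.2, 63.1, 23.1, 77.3 and 113 CPM, and only cKO replicate 3 fell within the WT range. The WT mean was 13.5 ± 9.29 CPM and the cKO mean 62.5 ± 35.3 CPM (SD, n = 5 each), with a log2 fold change of 2.22 (SE 0.59, adjusted p = 0.0222). The call was lost under 5 of the 20 settings, among them without WT replicate 5 (2.14, adjusted p = 0.0504), without cKO replicate 5 (1.89, adjusted p = 0.0563) and without WT replicates 3 and 4 together (1.73, adjusted p = 0.1).

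Amn encodes amnionless, the membrane subunit that carries cubilin to the cell surface and anchors it there, and lies at positions 111271095 to 111276426 of chromosome 12 (GRCm38, plus strand). It held 10.3, 15.4, 8.42, 8.34 and 10.6 CPM in WT and 14.0, 13.9, 12.9, 15.6 and 20.1 CPM in cKO, so that WT replicate 2 lay within the cKO range. The WT mean was 10.6 ± 2.86 CPM and the cKO mean 15.3 ± 2.87 CPM, with a log2 fold change of 0.53 (SE 0.17, adjusted p = 0.0393), and the call was lost under 13 of the 20 settings, with adjusted p of up to 0.218. The TPM ratio of Amn to Cubn was 3.49, 4.17, 10.4, 11.7 and 7.30 in WT libraries and 2.69, 1.53, 3.89, 1.41 and 1.21 in cKO libraries, and the 2 ranges overlapped.

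**Figure D2:**
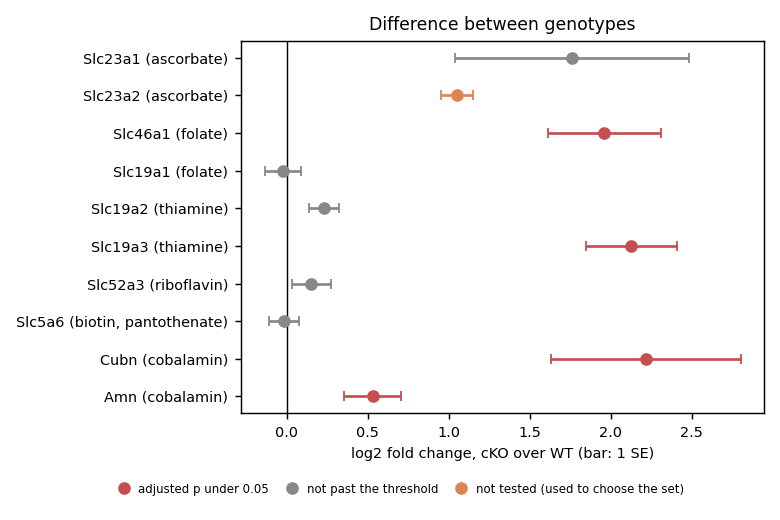
Log2 fold change of each transporter gene, cKO over WT, from the edgeR fit, with bars of 1 SE. Slc19a3, Cubn, Slc46a1 and Amn were called higher, the 5 grey genes did not pass the threshold, and Slc23a2 (orange, 1.05) was not tested because it was used to choose the set.

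Levels of different genes can be compared only per transcript length, and on the TPM scale the order of the 10 genes differed between genotypes. In WT crypts, Slc19a1 had the highest mean at 32.1 ± 5.87 TPM, followed by Slc46a1 (19.4 ± 7.11 TPM), Slc19a2 (12.2 ± 1.80 TPM), Slc5a6 (10.03 ± 1.56 TPM), Slc52a3 (9.31 ± 1.39 TPM), Amn (8.52 ± 2.08 TPM) and Slc23a2 (6.93 ± 0.888 TPM). Neighbours in this order overlapped over the libraries, whereas the step down to Cubn (1.54 ± 1.06 TPM), Slc23a1 (1.52 ± 1.44 TPM) and Slc19a3 (1.02 ± 0.465 TPM) showed no overlap between Slc23a2 and Cubn. In cKO crypts, Slc46a1 was first at 70.2 ± 28.0 TPM, above Slc19a1 (28.8 ± 5.09 TPM) without overlap, and Slc19a1 in turn lay above Slc19a2 (13.6 ± 1.25 TPM) without overlap. Slc23a2 followed at 13.0 ± 2.09 TPM, and from there the ranges of neighbours overlapped down to Cubn (6.82 ± 3.88 TPM), Slc23a1 (4.85 ± 2.96 TPM) and Slc19a3 (4.25 ± 1.21 TPM), which were the lowest 3 in both genotypes.

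The length that RSEM assigned to each gene, the mean transcript length weighted by isoform abundance, was not the measure by which the set was chosen. It could be tested for 9 of the 10 genes, Slc23a1 having a constant length of 3009 bases, and none was called, as against 0.160% of the 11860 genes tested (19 genes, with 1545 at an unadjusted p under 0.05, by limma). For Slc23a2 it was 6129 ± 398 bases in WT and 6292 ± 35.4 bases in cKO, close to its longest annotated transcript of 6364 bases in every library except WT replicate 4, at 5430 bases. The smallest unadjusted p among them, 0.0469, belonged to Slc52a3, whose length was 2557 ± 38.3 bases in WT and 2512 ± 12.4 bases in cKO (adjusted p = 0.375).

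Within genotypes, the transporter genes differed in how closely they followed the villus enterocyte markers from library to library. After the genotype means were subtracted, the Pearson correlation over the 10 libraries between log2 CPM and the log2 sum of those markers was 0.91 for Cubn, 0.90 for Slc46a1, 0.88 for Slc23a1, 0.86 for Amn and 0.67 for Slc19a3. It was 0.53 for Slc23a2, 0.11 for Slc52a3, -0.31 for Slc5a6, -0.34 for Slc19a2 and -0.55 for Slc19a1. With the summed markers of the proximal small intestine it was 0.92 for Slc46a1, 0.89 for Cubn, 0.88 for Slc23a1, 0.84 for Amn, 0.69 for Slc23a2 and 0.68 for Slc19a3, and it lay between -0.32 and 0.04 for the other 4 genes. The villus and proximal lists share Lct, which ran from 39.2 to 238 CPM in WT, against 175 to 203 CPM for the proximal marker Gata4. The 2 sets of correlations are therefore not separate. With the summed distal markers the correlation was 0.86 for Slc46a1, 0.78 for Amn, 0.68 for Slc23a1, 0.655 for Cubn, 0.64 for Slc19a3 and 0.60 for Slc23a2. It was 0.39 for Slc52a3, -0.375 for Slc5a6, -0.56 for Slc19a1 and -0.62 for Slc19a2. The distal sum was mostly Slc51a and Slc51b, at 39.6 and 9.48 of 49.8 CPM in the WT mean. These are descriptions over libraries that share their depth and composition. Among the transporters themselves, the closest pairs were Slc23a1 with Cubn (0.96), Cubn with Amn (0.86) and Slc46a1 with Slc19a3 (0.85).

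Between the highest and the lowest WT library, CPM differed 8.30-fold for Slc23a1, 5.14-fold for Cubn, 3.28-fold for Slc46a1, 2.95-fold for Slc19a3 and 1.84-fold for Amn, and 1.33-fold to 1.48-fold for Slc5a6, Slc19a1, Slc19a2 and Slc52a3. The 1.20-fold of Slc23a2 belongs to the small spread that may have helped to choose it, so nothing is read from it. Set against 1000 CPM of villus markers, Slc46a1 averaged 5.52 ± 0.591 CPM over WT and 6.63 ± 1.60 CPM over cKO libraries, Cubn 2.45 ± 0.620 and 3.67 ± 1.46 CPM, and Slc19a3 0.412 ± 0.103 and 0.555 ± 0.187 CPM, and the genotypes overlapped for each. On the same footing Slc23a2 averaged 7.71 ± 3.78 CPM over WT and 4.30 ± 1.03 CPM over cKO libraries, also with overlap. Slc19a1, Slc52a3, Slc5a6 and Amn were lower on it in every cKO library than in every WT library. The mean villus sum was itself 3.14 times as high in cKO as in WT, so a gene that rose less is pushed lower by the division. Nothing is read from these lower values, and Amn was called higher in CPM. The part of the villus cells in these differences was not tested.

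**Figure D3:**
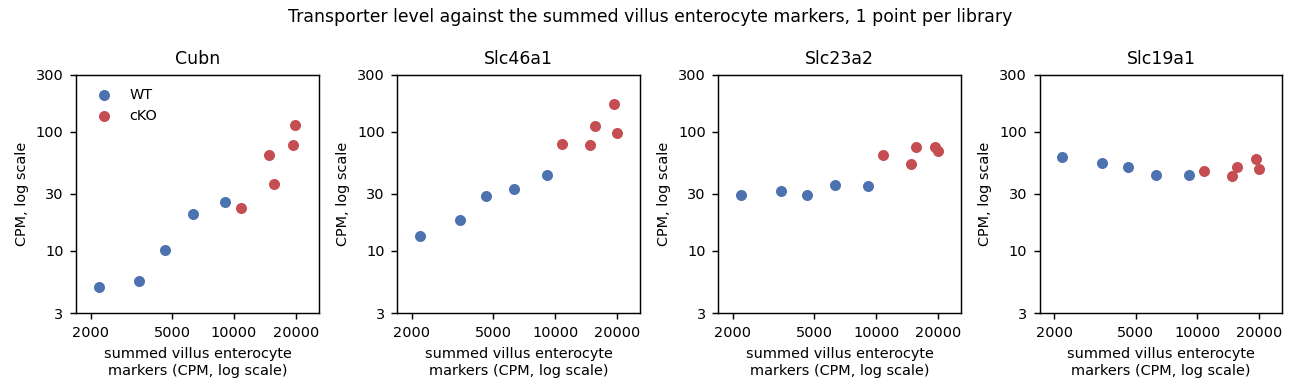
CPM of Cubn, Slc46a1, Slc23a2 and Slc19a1 in each library against the summed CPM of the 15 villus enterocyte markers, both on log axes, with WT in blue and cKO in red. Cubn and Slc46a1 climb along the axis within WT, and Slc19a1 shows no step between genotypes. Slc23a2 stays between 29.5 and 35.5 CPM in WT and lies at 53.1 CPM or more in cKO. The set was chosen on this rise of Slc23a2, so nothing is read from its gap or its small spread.

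The summed markers of the proximal small intestine ran from 250 to 479 CPM in WT and from 632 to 983 CPM in cKO, without overlap (355 ± 89.4 and 803 ± 148 CPM, SD, n = 5 each). Those of the distal small intestine ran from 21.99 to 99.96 CPM in WT and from 78.7 to 124 CPM in cKO, with overlap (49.8 ± 30.03 and 102 ± 16.6 CPM). The part of the proximal and distal markers in the rise of these transporters was not tested, and Lct is also one of the villus markers. Of 4 proximal markers 2 were called higher in cKO, the brush border lactase Lct (log2 fold change 1.92, adjusted p = 0.0245) and the iron exporter Slc40a1 (1.91, adjusted p = 0.00492), whereas the duodenal-jejunal transcription factor Gata4 did not differ beyond its spread (0.00, adjusted p = 0.985). Of 4 distal markers tested none was called. Slc51a and Slc51b, the subunits of a bile acid exporter, had log2 fold changes of 1.00 (adjusted p = 0.0534) and 1.20 (adjusted p = 0.0862), while Fabp6 and Slc10a2 had means under 1 CPM in both genotypes and Fgf15 had no counts in any library. In the libraries in which Cubn and Amn were measured, Fabp6, Slc10a2 and Fgf15 were thus at or near 0. Slc51a and Slc51b of the same list were not, with means of 39.59 and 9.48 CPM in WT and 79.15 and 21.82 CPM in cKO.

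The genes whose library-to-library pattern was most like that of a transporter were found by the same correlation over 10 libraries within genotypes. For Slc23a2 these were Tap2 (0.97), Unc119 (0.96) and Pipox (0.94), for Slc46a1 Lipa (0.97), Tsku (0.97) and Acsbg1 (0.96), and for Slc19a3 Sgk2 (0.93), Gbp4 (0.92) and Cd200r2 (0.91). For Cubn they were Slc5a12 (0.98), Slc47a1 (0.97) and Ace (0.97), and for Amn Hadh (0.97), Gstk1 (0.97) and Gclm (0.96). Each value was picked as among the highest over all other tested genes, so its height is no support for shared regulation. Acsbg1 (0.695 and 0.799 CPM, WT and cKO means), Unc119 (2.30 and 2.34), Gbp4 (1.87 and 1.48) and Cd200r2 (1.60 and 1.85) were low and not called.

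Beyond the transporters, 88 other genes of vitamin transport and use were listed by vitamin, of which 82 were tested. Of these, 23 were called higher and 10 lower in cKO, beside 15.6% and 12.7% of all genes, with a median log2 fold change of 0.00. The lower calls lay mostly in the folate list, the longest with 21 tested genes, and the higher calls were spread over all 7 lists. Under library size scaling 22 genes were called lower. Nothing is read from these counts, because the lists were drawn up with results of these libraries known. The same 15.6% and 12.7% of all genes stand beside the counts of each list below.

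In the folate list, 2 of 21 tested genes were called higher and 8 lower, beside 15.6% and 12.7% of all genes. Shmt2, the mitochondrial serine hydroxymethyltransferase that charges folate with a carbon unit, went from 89.9 ± 13.3 to 60.5 ± 2.65 CPM (log2 fold change -0.57, SE 0.09, adjusted p = 0.00163). Tyms, the thymidylate synthase that uses that unit to make dTMP for DNA, went from 83.1 ± 10.2 to 58.4 ± 5.88 CPM (-0.51, SE 0.09, adjusted p = 0.00299). The other genes called lower were Fpgs, Mthfd1, Mthfd2, Mthfd1l and Shmt1, which trap folate in the cell or interconvert its forms, and the exporter Abcc1, while Aldh1l1 was called higher. Abcg2, an apical exporter that carries folate among other substrates, rose from 60.7 ± 8.47 to 90.2 ± 7.05 CPM (0.57, SE 0.10, adjusted p = 0.00185). Shmt2, Tyms and Abcg2 showed no overlap between genotypes, but they were named for the smallest adjusted p of the list, so nothing is read from that. The rise of the absorptive folate carrier Slc46a1 stood beside lower levels of the folate enzymes named as called lower, in the same libraries.

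In the thiamine list, 5 of 13 tested genes were called higher and none lower. Ogdh and Dlst, subunits of the thiamine pyrophosphate-dependent oxoglutarate dehydrogenase complex, rose from 395 ± 54.0 to 621 ± 62.1 CPM (0.65, SE 0.10, adjusted p = 0.00145) and from 251 ± 24.0 to 310 ± 17.0 CPM (0.30, SE 0.07, adjusted p = 0.0108). Under library size scaling and on both TPM scales the list had 3 higher and 2 lower calls, and without WT replicates 3 and 4 it had 2 higher. The call of Dlst was lost under library size scaling, on both TPM scales and without WT replicates 3 and 4.

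In the ascorbate list, 3 of 9 tested genes were called higher and none lower. Slc2a2, a glucose transporter that also carries dehydroascorbate, rose from 82.4 ± 56.6 to 324 ± 62.9 CPM (1.98, SE 0.47, adjusted p = 0.0146), with all cKO libraries above all WT libraries. It was named for its small adjusted p in the list, so nothing is read from that gap. Glrx and Gsto1, which can reduce dehydroascorbate, rose by 0.87 (SE 0.15, adjusted p = 0.00269) and 0.32 (SE 0.09, adjusted p = 0.0194) on the log2 scale, the latter with overlapping groups. Its call was lost under library size scaling, without cKO replicate 1 and without WT replicates 3 and 4.

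The riboflavin and the biotin and pantothenate lists held higher calls although their carriers above did not pass the test. Rfk, the kinase that makes FMN from riboflavin, rose from 146 ± 29.9 to 280.1 ± 31.4 CPM (0.95, SE 0.13, adjusted p = 8.89e-04), and Slc52a2, a second riboflavin transporter, from 27.5 ± 2.90 to 36.6 ± 3.80 CPM (0.41, SE 0.09, adjusted p = 0.00728), making 2 of 3 tested genes, of which 1 was called without WT replicates 3 and 4. In the biotin and pantothenate list, 5 of 15 tested genes were called higher and none lower. Pank3, a pantothenate kinase at the start of coenzyme A synthesis, rose by 0.62 (SE 0.08, adjusted p = 7.99e-04), and the biotin-dependent carboxylases Pcx and Pccb rose by 0.59 (SE 0.10, adjusted p = 0.00206) and 0.29 (SE 0.06, adjusted p = 0.00624) on the log2 scale. Library size scaling gave 4 higher and 5 lower calls in this list and the TPM scales 5 higher and 2 lower, with 3 higher and none lower without WT replicates 3 and 4 and 2 lower without WT replicate 5. Pccb was not called under library size scaling or on the TPM scales.

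In the cobalamin list, 2 of 13 tested genes were called higher and 1 lower. Tcn2, which encodes the plasma carrier transcobalamin, rose from 103 ± 17.8 to 174 ± 19.4 CPM (0.76, SE 0.12, adjusted p = 0.00143), and Lmbrd1, which takes part in lysosomal cobalamin export, from 37.6 ± 3.85 to 56.4 ± 2.44 CPM (0.59, SE 0.08, adjusted p = 7.22e-04). Tcn2 and Lmbrd1 showed no overlap between genotypes, but they were named for the smallest adjusted p of the list, so nothing is read from that. Cd320, the transcobalamin receptor, went from 20.6 ± 1.83 to 17.0 ± 1.93 CPM (-0.28, SE 0.09, adjusted p = 0.0441), and this call was lost under 11 of 20 settings. Lrp2, a partner of cubilin in the kidney, held at most 0.645 CPM in any library.

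In the niacin and pyridoxine list, 4 of 8 tested genes were called higher and 1 lower. Nampt and Naprt, the enzymes that start NAD synthesis from nicotinamide and nicotinate, rose by 0.44 (SE 0.07, adjusted p = 0.0015) and 0.82 (SE 0.17, adjusted p = 0.00575), and Pdxp, the pyridoxal phosphatase, fell by 1.12 on the log2 scale (SE 0.29, adjusted p = 0.0134) from 2.64 ± 1.04 to 1.21 ± 0.367 CPM. The list had 1 higher call on both TPM scales and 2 under library size scaling and without WT replicates 3 and 4. The call of Nampt was lost on both TPM scales.

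**Figure D4:**
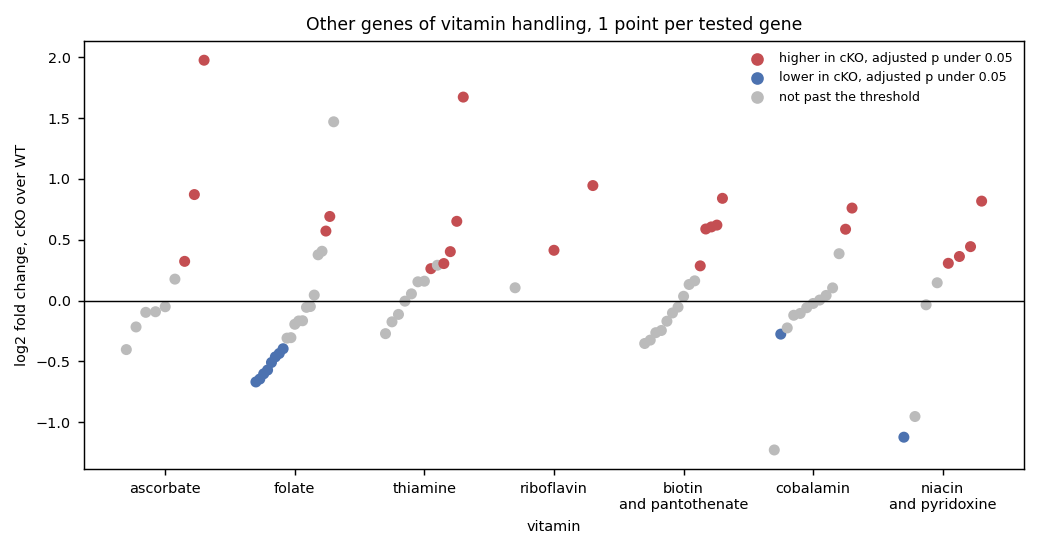
Log2 fold change, cKO over WT, of the 82 tested genes of vitamin transport and use other than the 10 transporters, grouped by vitamin, with 1 point per gene. Points called higher (red, 23) are spread over the 7 lists, and 8 of the 10 points called lower (blue) are in the folate list.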

How the data were processed

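Per the labels, polyadenylated RNA of crypts was sequenced from 5 WT and 5 Arid3a cKO mice. The authors aligned reads with STAR and quantified genes with RSEM against Ensembl GRCm38, and deposited, per library, expected counts, TPM, FPKM and gene lengths without normalisation between libraries. RSEM divides reads that match several genes, so the deposited expected counts need not be whole. The deposited TPM served for comparisons between genes, and the deposited FPKM was not used. The authors tested genotype with DESeq2 in a model that included time, and only 1 time point is present here.

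The members and gene lists were chosen with earlier results of these data known. Expected counts were rounded to whole numbers for edgeR 4.0.16 (R 4.3.3), using filterByExpr (minimum count 10, minimum total 15), TMM (factors of 0.934 to 1.08) and the robust quasi-likelihood test on all 10 libraries without covariates, with Benjamini-Hochberg adjustment over 14719 genes and a threshold of 0.05. Each SE was derived from the test, as the absolute log2 fold change over the square root of the quasi-likelihood F statistic. A log2 fold change over its SE therefore restates that statistic. Log2 RSEM length and log2 TPM were tested with limma 3.58.1 (TPM with pseudocounts of 0.1 and 1). Counts of genes without a symbol, 0.018% to 0.0215%, stayed in the library sizes. Named genes were the 10 transporters, Arid3a, up to 3 genes per list of smallest adjusted p, and the 3 genes most correlated with each of 5 transporters on log2 CPM (prior count 2). Other genes called lower or higher in the folate list, the position markers, Lrp2 and the genes at the Slc23a2 and Slc19a1 loci were named besides. A gene that meets this rule is not reported here, though it stays in the counts and tests. The scripts were tested on simulated data.

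At 1 CPM a gene has 26.4 to 29.9 counts, from library totals times TMM factors, so low genes carry counting error as well as the spread between animals. Reads carry no molecular identifiers. The tests were repeated with DESeq2 1.42.0, with RLE factors, with library size scaling, with 2 other filters, with limma-voom, on TPM, with the replicate block, without each library in turn, and without WT replicates 3 and 4 together. The replicate numbers did not pair the libraries, since same-numbered libraries correlated between -0.20 and 0.10 in their deviations from the genotype means. The build of the reference annotation and promoter table was GRCm38. The single-cell, chromatin and villus libraries of the study were not analysed here.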

Additional observations from a re-analysis of the deposited data

Results flagged for a closer look

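Dlst, a subunit of the oxoglutarate dehydrogenase complex, was at 293 CPM in WT replicate 2, against 233 to 248 CPM in the other 4 WT libraries. The gap of this library to the next was 0.76 of the range of the group, above the limit of 0.71 for groups of 5. Of 62 groups of 5 libraries examined this way, 1 stood out, and chance alone marks about 1 in 20.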

How the results depend on the processing

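Slc46a1 and Slc19a3 were called under every alternative. Of 180 values of the 9 tested transporters under 20 alternatives each, 151 kept direction and side of the threshold, 18 lost the call, 4 gained it and 7 changed sign. Slc23a2, without a test, ran from 0.82 on the log2(TPM + 1) scale, a move of more than its replicate spread, to 1.12. Without WT replicates 3 and 4 together, 2143 genes were called (1472 higher, 671 lower), with 2 of the 9 transporters other than Slc23a2 and 14 pathway genes higher. The TPM scales gave 1399 and 1411 higher and 2742 and 2760 lower genes (33.8% of calls higher, against 55.1%), library size scaling 4030 lower genes with 22 lower pathway genes, and no filter 2 transporters higher. With the replicate block, 1861 genes were higher and 1191 lower, 2 genes were called by length, and Cubn was no longer called (2.27, adjusted p = 0.0556). No library correlated best with its own number, so the block is only a number shared by libraries. Requiring a mean TPM of at least 1 left 30 genes called by length. Leaving out 1 library at a time gave 1131 to 2112 lower genes, 2 to 5 transporters higher and 0 to 60 genes called by length. Over these, the log2 fold change of Slc19a1 ran from -0.096 to 0.051, positive without WT replicate 3, WT replicate 4 or cKO replicate 2, and it was 0.122 without WT replicates 3 and 4 together. That of Slc5a6 ran from -0.066 to 0.056, positive without WT replicate 4 or cKO replicate 1, and it was 0.054 without WT replicates 3 and 4 together. The log2 length difference ran from -0.002 (without WT replicate 4) to 0.055 for Slc23a2, from -0.064 to 0.008 (without WT replicate 5) for Slc19a3 and from -0.021 (without cKO replicate 4) to 0.084 for Slc5a6. The cause of these changes was not tested.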
